A study of Mus musculus with 12 samples.

Results

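Cd200+ synovial fibroblasts are a class of mouse joint cells that the authors named in their table of annotated cells. They were taken as the cells with that annotation whose barcode was found in the count matrix of the same well. There were 109 such cells among 3548 matched cells of the 2 fibroblast wells, and among 8042 annotated cells in the whole series. Every Cd200+ cell was matched, and no barcode was shared between the wells.

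The study profiled synovial innate lymphoid cells and fibroblasts by droplet single-cell RNA sequencing of ankle and wrist joints. All mice carried Il5 wt/Cre and R26 tdTom/tdTom alleles (strain R5 x R26tdTomato), controls included, and were 8 to 10 weeks old. Mice were healthy and untreated, had serum transfer arthritis (STA), or had STA together with Il23mc. Il23mc is named but not described in the labels. Each fibroblast well held 3 hashtags, antibody-bound barcodes that mark the source of a cell. Experiment 1 held healthy, STA and STA + Il23mc cells, and experiment 2 held healthy cells and 2 STA hashtags, which the well's feature list calls mild and severe. The labels speak of 4 pooled animals per well, so how many animals stand behind a hashtag is unknown. The hashtag is the replicate here, and p-values of the fits rest on the spread between hashtags, which may be partly technical. The fit of STA against healthy left 2 residual degrees of freedom, so this spread was estimated in part across genes. A small p-value is therefore no measure of how even a single gene was.

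CD200 is a membrane glycoprotein of the immunoglobulin superfamily that restrains myeloid cells through its receptor. Dkk3 is a secreted member of the Dickkopf family, and periostin, the product of Postn, is a matricellular protein of collagen-rich tissue. Synovial fibroblasts comprise a lining layer that makes lubricin and a sublining of several perivascular and interstitial states, next to tendon, ligament, cartilage and bone surfaces.

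The 15-base hashtag barcodes are shown because they are what divides the 109 cells into conditions. The same 3 barcodes served both experiments, and only the well tells the STA + Il23mc cells of experiment 1 from the severe STA cells of experiment 2.
Hashtag 1, healthy: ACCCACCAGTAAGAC
Hashtag 2, STA (mild STA in experiment 2): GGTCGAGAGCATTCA
Hashtag 3, STA + Il23mc (severe STA in experiment 2): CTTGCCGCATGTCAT

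Cd200+ cells were few in every hashtag. In experiment 1 there were 31 healthy, 17 STA and 20 STA + Il23mc cells, and in experiment 2 there were 15 healthy, 10 mild STA and 16 severe STA cells. Their summed unique molecular identifiers (UMIs, counted RNA molecules) came to 127533 to 231510 per hashtag, so that 3 counts correspond to 13.0 to 23.5 counts per 1000000 UMIs (CPM). The median Cd200+ cell held 8793 UMIs, close to the 8786 of Pi16+ cells and below the 20568 of Mmp3+ cells. Levels below are CPM of the summed UMIs of a class in a hashtag.

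The class was checked first against the 3 markers of its label. Over all hashtags, Cd200 (ENSMUSG00000022661) stood at 106 CPM in Cd200+ cells, against 28.9 in Il6+, 20.5 in Pi16+, 8.56 in Mmp3+ and 2.52 in Lining cells. Of the 7 annotated classes only Osteoblasts held more, at 224 CPM. Dkk3 stood at 108 CPM in Cd200+ cells, near the 93.2 of Mmp3+ cells and the 114 of Osteoblasts. Postn went against the label: its 811 CPM in Cd200+ cells were below the 2405 of Mmp3+, the 1147 of Il6+ and the 1105 of Pi16+ cells.

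By hashtag, Cd200 stood at 117 and 141 CPM in healthy Cd200+ cells, at 90.0, 31.4 and 200 in STA, mild STA and severe STA, and at 37.9 with Il23mc. It was above the summed other 4 fibroblast classes in 6 of 6 hashtags, Dkk3 in 5 of 6 and Postn in 0 of 6. Dkk3 read 121 and 191 CPM in healthy Cd200+ cells against 23.2 and 34.4 in the other classes, but 65.0 against 90.5 in the STA hashtag of experiment 1.

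**Figure D1:**
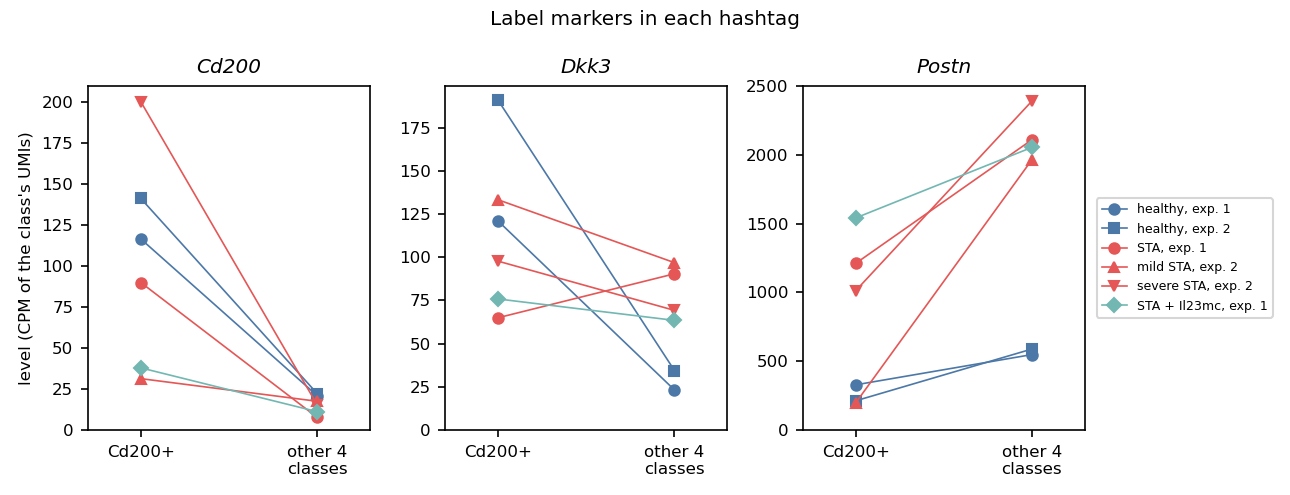
Levels of Cd200, Dkk3 and Postn in CPM (vertical axes, from 0) in Cd200+ cells and in the summed other 4 fibroblast classes, 1 line per hashtag. Cd200 falls from Cd200+ to the other classes in 6 of 6 hashtags, while Postn is lower in Cd200+ cells in all 6.

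A UMI of Cd200 was found in 45 of the 109 cells, of Dkk3 in 59 and of Postn in 64, with 15 cells holding all 3 and 15 holding none. At 1500 UMIs drawn from each cell, Cd200 was seen in 11.9% of Cd200+ cells (Wilson 95% interval 7.10 to 19.3%), in 2.54% of Pi16+ cells and in 33.1% of Osteoblasts. The unthinned shares were 41.3%, 11.1% and 74.0%. No cell was too shallow to be thinned. These intervals cover counting error only.

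The genes that led the class included bone genes (Bglap, Bglap2, Omd, Runx2) and Chad and Cilp2, genes of cartilage and tendon. Next to these stood genes of other kinds such as Lrrn1, Ptprd and Cadm1. The leading genes are a description, since the classes were drawn from the same RNA, and no test was made. Ranked by the lowest of the 6 hashtag ratios to the other fibroblast classes, the leaders were Ostn, Npnt, Cilp2, Lrrn1, Omd, Fbxo2, Chad, Caln1, Bglap, Snhg11, Vipr2, Nog, Bglap2, Fgfr2, Ptprd, Nppc, Cadm1, Fat4, Ndnf and Runx2.

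Ostn encodes osteocrin, a secreted peptide of bone and muscle. It read 695 and 56.5 CPM in the healthy hashtags, 110, 133 and 112 in the STA hashtags and 498 with Il23mc. The other fibroblast classes averaged 1.1 CPM, and the spread within Cd200+ cells was wide: 28 cells held all 336 UMIs and 1 cell held 24.7% of them.

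Npnt, the integrin ligand nephronectin, was more even, at 71.1 to 184 CPM over the hashtags and in 51 cells. Omd, the bone proteoglycan osteomodulin, ranged from 254 to 626 CPM and was found in 66 cells. Chad, the cartilage and tendon protein chondroadherin, ranged from 161 to 2092 CPM, and Cilp2, a cartilage intermediate layer protein, from 152 to 737. The low values of Chad were all in the 3 arthritic hashtags other than mild STA.

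Several leaders encode regulators of skeletal growth. Runx2, the transcription factor of the osteoblast lineage, stood at 99.6 to 212 CPM in the 6 hashtags, against 18.5 as the mean of the other fibroblast classes. Fgfr2, a fibroblast growth factor receptor, stood at 110 to 264 CPM. Nog, the BMP antagonist noggin, and Nppc, the precursor of C-type natriuretic peptide, were rarer, with UMIs in 20 and 21 cells. Bglap and Bglap2 encode osteocalcin from near-identical neighbouring genes, so the split of reads between them is uncertain. Over all hashtags they read 194 and 332 CPM in Cd200+ cells and 54.0 and 206 CPM in Lining cells.

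**Figure D2:**
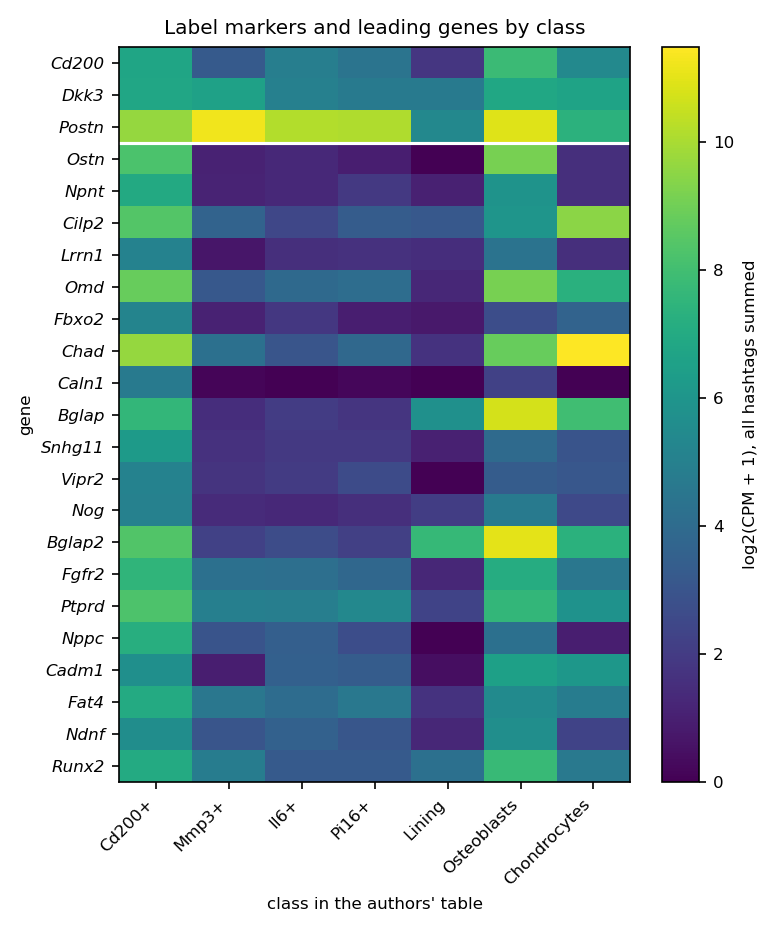
Levels of the 3 label markers (above the white line) and the 20 leading genes in the 7 annotated classes, as log2(CPM + 1) of all hashtags summed (colour). Postn is brighter in Mmp3+, Il6+ and Pi16+ cells than in Cd200+ cells, and Ostn, Omd, Bglap and Runx2 are bright in Osteoblasts too, as are Chad and Cilp2 in Chondrocytes.

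Several of these genes were also found in the 2 classes that the authors named Osteoblasts and Chondrocytes. By the marker lists the latter name is doubtful: Chondrocytes summed to 10780 CPM of 6 tenocyte markers and 1415 CPM of 7 chondrocyte markers, whereas Osteoblasts held 1314 and 12391 CPM. The former name covers only 1 of the 2 lists, since Osteoblasts held about as much of the 7 osteoblast markers, 12557 CPM. At least 3 UMIs of the osteoblast markers were held by 125 of 127 Osteoblasts. Whether the same cells held the chondrocyte markers was not counted. Cd200+ cells held 2061 CPM of the tenocyte, 295 of the chondrocyte and 1130 of the osteoblast markers. The authors' names are kept. Ostn read 301 CPM in Cd200+ cells and 553 in Osteoblasts, and Bglap 194 and 1702. Chad read 800 in Cd200+ cells and 2848 in Chondrocytes, and Fmod, the tendon proteoglycan fibromodulin, 1234 and 3837. Among the genes higher in Cd200+ cells than in any other of the 7 classes were Npnt at 125 CPM (58.0 in Osteoblasts), Nppc at 145 (18.1), Snhg11 at 75.3 (14.8), Caln1 at 25.1 (3.7), Fat4 at 128 (43.6) and Fgfr2 at 180 (138). Ibsp, the bone sialoprotein of mineralising matrix, read 264 CPM in Cd200+ cells and 7736 in Osteoblasts, with 44.8% of its Cd200+ UMIs in 1 cell.

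Across 7204 genes with at least 20 CPM in a class, the log2(CPM + 1) profile of Cd200+ cells had a Pearson correlation of 0.88 with Chondrocytes, 0.87 with Il6+, 0.86 with Mmp3+, 0.85 with Osteoblasts, 0.83 with Pi16+ and 0.71 with Lining cells. The points are genes, the profiles share libraries, and the values of the first 4 lie close together.

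Some Cd200+ cells held both bone and tendon transcripts, about as many as the product of the 2 shares gives. At least 3 UMIs of 7 osteoblast markers were held by 60 of 109 Cd200+ cells, at least 3 UMIs of 6 tenocyte markers by 80, and both by 47, where the product is 44.0. In Pi16+ cells of like depth the counts were 9, 91 and 4 of 629. At 1500 UMIs per cell, 18.3% of Cd200+ cells passed the bone count, 33.9% the tendon count and 7 cells both, where the product is 6.79. The bone count was passed by 0% of Pi16+ and 0.784% of Mmp3+ cells. Lining cells were not counted, but Bglap was found in 33.5% of them against 32.1% of Cd200+ cells (8.86% against 13.8% thinned). The osteoblast markers summed to 283 CPM in Lining and 1130 CPM in Cd200+ cells. The tendon count was passed by 5.25% of Pi16+ cells but by 36.8% of Mmp3+ cells (77.2% unthinned), a share above that of Cd200+ cells. Of Osteoblasts 79.5% passed the bone count, and of Chondrocytes 72.9% passed the tendon count. Tnmd, the tendon membrane protein tenomodulin, was found in 61 Cd200+ cells.

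The genes lowest in Cd200+ cells, by the highest of the 6 hashtag ratios to the summed other classes, included acute-phase, chemokine and elastic fibre genes. Saa3, an acute-phase protein, averaged 49.2 CPM over the hashtags against 1174 in the other classes. Without the Il23mc hashtag, which held 237 CPM (96.0% of it in 1 cell) and 4888 CPM, the means were 11.6 and 431 CPM. By class Saa3 stood at 54.7 CPM in Cd200+ and 72.8 in Pi16+ cells. Lining, Il6+ and Mmp3+ cells held 200, 1257 and 2612 CPM. Ccl11, the eosinophil chemokine eotaxin, stood at 13.4 CPM against 509 in Il6+ and 473 in Pi16+ cells. Mmp3+ and Lining cells were also low in it, at 14.8 and 1.80 CPM. Eln, which encodes elastin, stood at 27.8 CPM against 379 in Pi16+, 352 in Il6+, 224 in Mmp3+ and 64.1 in Lining cells. Osteoblasts held 24.1 CPM of it. Col22a1, F13a1 and AA467197 had 0 UMIs in the 109 cells. Their levels were highest in Lining cells, at 589, 1181 and 84.3 CPM. Il6+ cells held 0.758, 2.40 and 9.48 CPM of these genes, and Pi16+ cells 1.59, 4.28 and 19.7. Emilin2, Ereg, Sbsn and Lcn2 completed the 10, and 4 cells held all 63 UMIs of Lcn2. Lcn2 stood at 56.5 CPM in Cd200+ cells, near the 45.4 of Lining and the 75.8 of Pi16+ cells.

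Leukocyte and endothelial markers were at or near 0. Of 6 leukocyte markers, Cd52, Lyz2, Cd74, Cd3e and Csf1r had no UMI, and the list summed to 0 in both healthy hashtags and to 0 to 4.89 CPM in the STA hashtags. Endothelial markers summed to at most 15.0 CPM in any hashtag, with Kdr and Cldn5 at 0. Mural markers summed to 220 CPM in STA of experiment 1 and to 33.2 to 56.5 CPM in the other 5 hashtags, and 1 cell of that STA hashtag held all 19 UMIs of Rgs5. S100b, a gene of Schwann cells that cartilage cells also express, read 181 and 226 CPM in healthy and 40.0 to 171 in STA hashtags and lay in 49 cells. Over all hashtags it stood at 135 CPM in Cd200+ cells, the highest of the 7 classes, but near the 115 of Lining cells and the 93.2 of Osteoblasts. Osteoblast markers summed to 968 and 2497 CPM in healthy and to 587 to 860 in STA hashtags, with Dmp1 at 0. Chondrocyte markers summed to 77.7 and 108 CPM in healthy and 220 to 327 in STA hashtags. The part of these lists in the STA values below was not tested.

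Promoter windows from RefSeq (GRCm38.p6) are shown for the gene that names the class and for the 2 leading genes that hold the core letters bound by RUNX factors. Capitals mark the letters TGTGGT or their reverse complement.
Cd200, chr16:45409004-45409303, minus strand: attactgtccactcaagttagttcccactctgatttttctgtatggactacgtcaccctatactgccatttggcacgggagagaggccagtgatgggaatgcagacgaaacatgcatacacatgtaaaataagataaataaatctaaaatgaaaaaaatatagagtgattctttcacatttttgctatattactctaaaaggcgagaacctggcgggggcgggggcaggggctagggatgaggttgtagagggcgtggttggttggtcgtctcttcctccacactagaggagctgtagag
Bglap, chr3:88384417-88384716, minus strand: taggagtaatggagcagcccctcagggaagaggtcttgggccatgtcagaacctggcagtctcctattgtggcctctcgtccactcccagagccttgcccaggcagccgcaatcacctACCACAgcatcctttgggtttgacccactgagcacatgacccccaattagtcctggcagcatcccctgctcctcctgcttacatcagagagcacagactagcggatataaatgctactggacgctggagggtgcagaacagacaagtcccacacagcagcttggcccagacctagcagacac
Runx2, chr17:44814578-44814877, minus strand: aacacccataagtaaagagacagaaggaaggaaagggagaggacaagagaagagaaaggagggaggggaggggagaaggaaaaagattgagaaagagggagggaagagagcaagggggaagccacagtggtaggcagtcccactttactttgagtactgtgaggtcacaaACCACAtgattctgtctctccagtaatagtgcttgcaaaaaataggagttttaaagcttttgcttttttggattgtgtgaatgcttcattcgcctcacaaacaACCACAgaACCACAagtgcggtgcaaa
Of the 20 leading genes, 14 had a window and 2 held the letters, with 1 match in Bglap, 3 in Runx2 and 0 in Cd200. Both strands were searched, and no match overlapped another. Of all 32851 windows, 16.8% held the letters. A match describes the letters only and is not evidence of binding.

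The share of Cd200+ cells was lower in arthritic than in healthy hashtags when all fibroblasts were the base. Among the 5 fibroblast classes it was 7.60% (31 of 408 cells) and 5.60% (15 of 268) in healthy hashtags. It was 1.80% (17 of 943), 3.53% (10 of 283) and 3.40% (16 of 470) in STA, mild STA and severe STA, and 2.10% (20 of 953) with Il23mc. The healthy and STA values did not overlap, at 6.60% ± 1.41 (SD, n = 2) and 2.91% ± 0.964 (SD, n = 3). A two-sided exact permutation test gave p = 0.1, the smallest that 2 against 3 allows.

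This difference moved with the Mmp3+ class, which held 10 and 29 cells in the healthy hashtags and 139 to 655 in the STA hashtags. With Mmp3+ cells out of the base, a choice made after the counts were seen, the share was 7.79% and 6.28% in healthy hashtags and 5.90%, 6.94% and 5.73% in STA hashtags, and the groups overlapped (difference -0.839 percentage points, exact permutation p = 0.4). Fewer Cd200+ cells and more cells of another class cannot be told apart from shares, and sorting and pooling set the base.

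**Figure D3:**
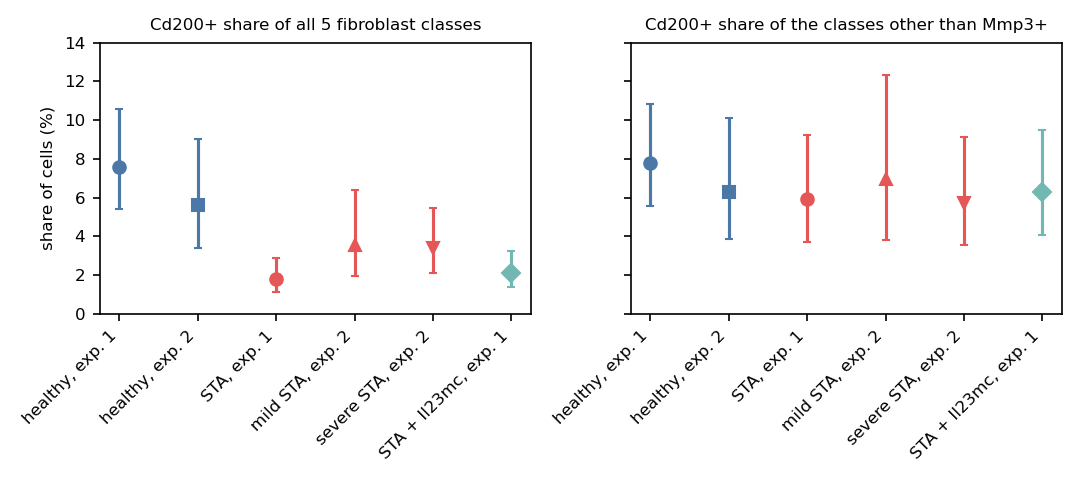
Share of Cd200+ cells in % (vertical axis, from 0) in each hashtag, with Wilson 95% intervals, of all 5 fibroblast classes (left) and of the classes other than Mmp3+ (right). Healthy hashtags lie above STA hashtags on the left, and the 2 groups overlap on the right.

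Whether the class changed its genes in arthritis was asked by comparing the summed Cd200+ UMIs of the 2 healthy and 3 STA hashtags with a term for the experiment. No gene passed an adjusted p of 0.05 in edgeR's quasi-likelihood test: 0 of 3100 genes were called, 0% of those tested, and 227 (7.32%) had an unadjusted p under 0.05, 110 of them higher (3.55%) and 117 lower (3.77%). DESeq2 on the same sums called 11 genes, 5 higher (0.661% of the 756 genes it gave an adjusted p) and 6 lower (0.794%). Those 11 are named here after their values were seen. The 2 STA hashtags of experiment 2 share their control.

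The 5 higher calls were Il6, Ptgs2, Tnfaip6, Thbs4 and Timp1. Il6, the cytokine interleukin-6, read 311 and 155 CPM in healthy and 785, 643 and 811 CPM in STA, mild STA and severe STA hashtags, and the groups did not overlap. Its log2 fold change was 1.84 (SE 0.35; edgeR adjusted p = 0.369, DESeq2 adjusted p = 0.0136). Ptgs2, the inducible cyclooxygenase, read 371 and 212 CPM against 1065, 478 and 987, a log2 fold change of 1.71 (SE 0.39). Tnfaip6, a hyaluronan-binding protein induced by inflammation, read 328 and 304 CPM against 1136, 502 and 1173.

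Thbs4, a thrombospondin of tendon, had a log2 fold change of 2.93 (SE 0.50; edgeR adjusted p = 0.334, DESeq2 adjusted p = 0.000275), from 130 and 56.5 CPM to 950, 635 and 235. Over all 6 hashtags 26.1% of its UMIs lay in 1 cell. In the STA hashtag of experiment 1, 1 cell held 53.7% of its 190 UMIs. Timp1, an inhibitor of metalloproteinases, read 501 and 558 CPM against 2846, 1106 and 880. In all 5 genes every STA hashtag lay above both healthy hashtags, as 8.29% of all tested genes did. In the summed other 4 fibroblast classes Thbs4 and Timp1 did the same, whereas Il6, Ptgs2 and Tnfaip6 overlapped. Timp1 read 570 and 344 CPM there in healthy and 2320, 1487 and 1311 in STA hashtags. That sum also changed its makeup with the Mmp3+ class.

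The 6 lower calls were Bglap2, Prg4, Nbl1, Tsc22d3, Igfbp5 and Gsn. Bglap2 read 898 and 403 CPM in healthy and 90.0, 259 and 83.1 in STA hashtags (log2 fold change -2.14, SE 0.58). Bglap read 518 and 318 CPM against 60.0, 180 and 44.0. Prg4, which encodes lubricin, read 536 and 1322 CPM against 260, 188 and 220 (log2 fold change -1.98, SE 0.40). It had 311 UMIs in healthy and 121 in STA hashtags. Of its 587 UMIs over all 6 hashtags, 16.7% lay in 1 cell and 43.6% in 5 cells, so single cells weigh on these levels. The other lower genes were Nbl1, a secreted BMP antagonist, at -1.91, Tsc22d3, a glucocorticoid-induced leucine zipper protein, at -1.76, Igfbp5, an IGF-binding protein, at -1.44, and Gsn, the actin-severing gelsolin, at -1.23. In each every STA hashtag lay below both healthy hashtags, as 10.1% of all tested genes did. In the summed other 4 fibroblast classes Bglap2, Nbl1, Tsc22d3, Igfbp5 and Gsn did the same, whereas Prg4 overlapped. Gsn read 17356 and 22294 CPM there in healthy and 1576, 5352 and 6437 in STA hashtags. That sum changed its makeup with the Mmp3+ class. By class Gsn stood at 18793 CPM in Pi16+, 13077 in Il6+, 2713 in Lining and 898 in Mmp3+ cells. The part of the changed makeup in these values was not tested.

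**Figure D4:**
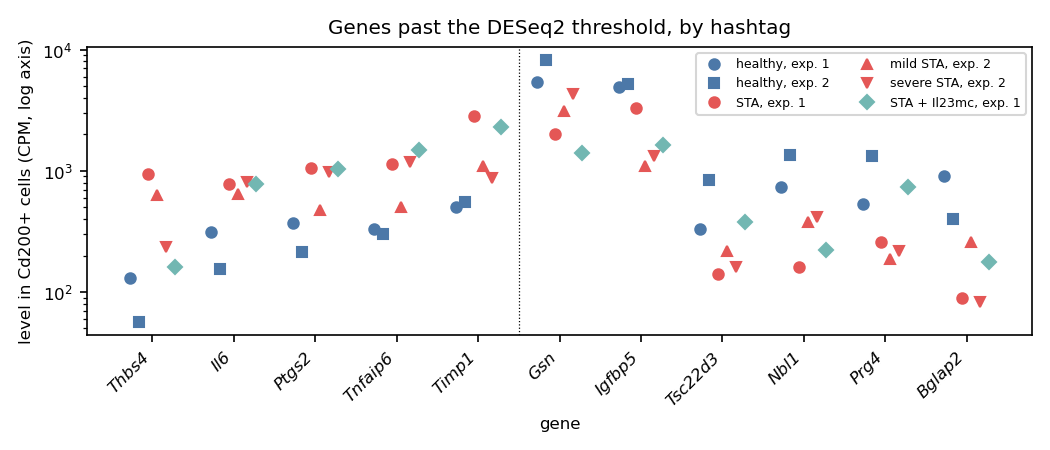
Levels in Cd200+ cells (CPM, log axis) of the 11 genes past the DESeq2 threshold, 1 point per hashtag, with higher genes left of the dotted line and lower genes right of it. Healthy and STA points do not overlap for any of the 11, and the STA + Il23mc point lies among the STA points for Il6 and among the healthy points for Prg4.

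The label genes did not separate the groups. Cd200 had a log2 fold change of -0.22 (SE 0.59), Dkk3 of -0.77 (SE 0.32) and Postn of 1.74 (SE 0.62), with edgeR adjusted p of 0.986, 0.662 and 0.634. Postn read 328 and 212 CPM in healthy hashtags, 1211 and 1012 in STA and severe STA but 196 in mild STA, so its groups overlapped. Thy1, a sublining marker, had a value of 0.94 (SE 0.52), Pdgfra, the fibroblast PDGF receptor, of -0.04 (SE 0.36) and Mmp3, stromelysin-1, of 0.13 (SE 0.63). Pi16 was too low to be tested, with 50.6% of its 77 UMIs in 1 cell.

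Gene lists are given by counts and medians, beside a median log2 fold change of 0.00 and 50.1% of estimates above 0 over all 3100 genes. No member of any of the 25 lists passed the edgeR threshold. Of 18 collagen chains tested, 15 had an estimate above 0, with a median of 0.64. Col1a1 stood at 0.96, Col1a2 at 0.78 and Col3a1 at 1.13, and Col1a1 read 7313 and 7831 CPM in healthy against 16353, 9158 and 17048 in STA hashtags. Collagen processing enzymes and chaperones had 9 of 9 estimates above 0 (median 0.49), with Pcolce, an enhancer of procollagen cleavage, at 0.33 and the collagen chaperone Serpinh1 at 0.58.

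Matricellular and elastic fibre genes had 15 of 20 estimates above 0 (median 0.55), Sparc standing at 0.55 and Comp at 0.21. Of these 20, 7 were higher and 1 lower at an unadjusted edgeR p under 0.05. Of the 18 collagen chains, 6 were higher and 0 lower. The shares of all tested genes were 3.55% higher and 3.77% lower. Small leucine-rich proteoglycans had 7 of 9 (median 0.31), with Lum at 0.96 but Dcn, decorin, at -1.0. Decorin read 28932 and 26051 CPM in healthy hashtags against 11660, 17548 and 11960 in STA hashtags, which did not overlap. Matrix proteases and inhibitors were split 7 to 7, with Mmp2 at -0.10.

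Cytokines and chemokines had 10 of 11 estimates above 0 and the highest median, 0.89, with Cxcl1, a chemokine for neutrophils, at 0.88 (SE 0.44) and Cxcl14 at 0.57 (SE 0.36). Heat shock genes had 9 of 10 (median 0.51), with Hspa8 at 0.51 and Hsp90aa1 at 0.70. Complement genes had 7 of 8 (median 0.19), Serping1 standing at 0.01. Immediate early genes had 11 of 16 (median 0.11), with Fos at 0.02 and Fosb at 0.46. The 3 tested genes of the IL-4 and IL-13 axis were all above 0, with Socs1 at 0.57 and Il4ra at 0.64, but without healthy replicate 2 these were -0.30 and -0.23, and without STA replicate 2 Socs1 was -0.17. Acute phase and NF-kB feedback genes were split 5 to 5, with Ier3 at -0.31 and Nfkbia at -0.17.

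Skeletal lists showed no common direction. Bone genes had 4 of 7 estimates above 0 (median 0.00), with Runx2 at 0.03, Alpl at 0.47, Ibsp at 0.00 and Bglap at -2.20. Tendon and ligament genes had 7 of 9 (median 0.31), with Fmod at 0.50 and Tnmd at 0.31 beside Chad at -1.59. Cartilage genes had 2 of 5 (median -0.35), with Sox9 at 1.06 and Acan, aggrecan, at 3.53 (SE 0.73, edgeR adjusted p = 0.369). Chad, also in this list, was among the 3 below 0. At an unadjusted edgeR p under 0.05, 2 of the 5 cartilage genes were higher and 2 lower, beside 3.55% and 3.77% of all tested genes.

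The Wnt, TGF-beta and BMP, IGF and interferon lists had medians below 0. Wnt genes were split 5 to 5 (median -0.31), with Sfrp4 at -0.64 and Sfrp2 at 1.27. At an unadjusted edgeR p under 0.05, 3 of the 10 were lower and 1 higher, beside 3.77% and 3.55% of all tested genes. TGF-beta and BMP genes had 6 of 15 above 0 (median -0.22), with Id3 at 0.20 and Tgfb2 at 0.43. IGF genes had 4 of 10 (median -0.22), with Igfbp7 at 0.26. Interferon and MHC class I genes had 2 of 7 (median -0.18), with Ifitm3 at -0.43 and B2m at -0.18. Of the CD200 and checkpoint list only Cd200 and Cd47 (-0.41) were tested. Glycolysis and hypoxia genes had 3 of 10 (Hk2 0.21, Ldha -0.02), cell cycle genes 1 of 3 (H2afz 0.08, Pcna -0.27) and contractile genes 4 of 5 (Tpm1 0.79, Myh9 0.02). Retinoid and aldehyde genes had 2 of 6 (Rarres2 -0.08, Crabp2 1.10), guidance and adhesion genes 5 of 10 (Vcam1 0.29, Cdh11 0.38) and prostaglandin genes 1 of 2, with Ptgis at -1.0.

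**Figure D5:**
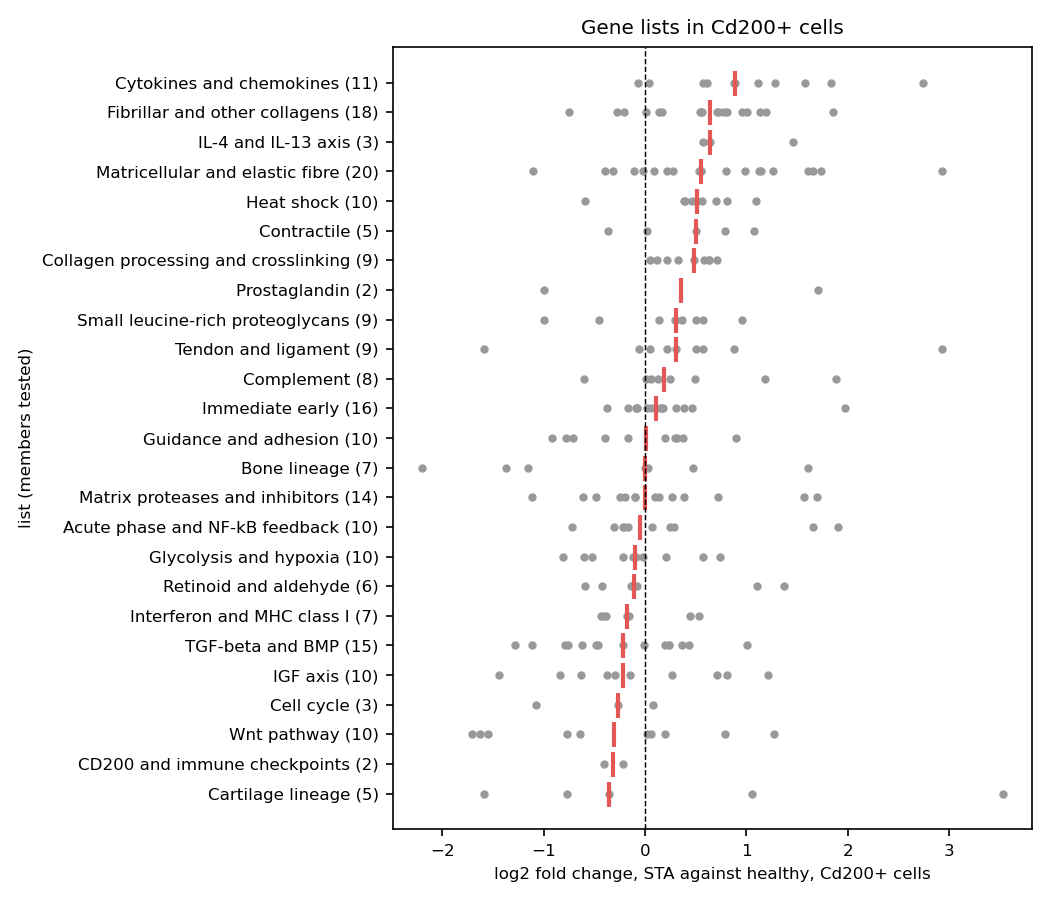
Log2 fold changes of STA against healthy hashtags in Cd200+ cells (horizontal axis) for the tested members of 25 gene lists (grey points), with each list's median (red bar) and the median of all genes (dashed line). The cytokine and collagen medians lie at 0.89 and 0.64, and those of bone genes at 0.00.

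Whether the STA effect differed between Cd200+ cells and the other 4 fibroblast classes was tested by an interaction term, with hashtag as a block. It called 122 of 10635 genes (1.15%), 68 higher (0.639%) and 54 lower (0.508%). The sum of the other classes also changed its makeup with the Mmp3+ class. Against Pi16+ and Il6+ cells alone, a base chosen after the data were seen, 4 of 8745 genes were called (0.0457%), of which 3 were among the 122. Without the hashtag block 0 were called.

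The 4 genes were Prg4, Cryab, Ccl8 and Pi16. Cryab, a small heat shock protein, read 117 and 127 CPM in healthy Cd200+ cells and 705, 361 and 142 in STA hashtags, while the other 4 classes went from 165 and 349 to 96.3, 121 and 91.6. Its difference of effects was 3.06 (SE 0.40, adjusted p = 3.41e-11, edgeR), and 2.46 against Pi16+ and Il6+ cells (adjusted p = 0.0366). Of its STA UMIs in experiment 1, 63.1% lay in 1 cell. Dkk3 had a difference of -2.25 (SE 0.43, adjusted p = 6.26e-05, edgeR) against the 4 classes but -0.73 (adjusted p = 1.00) against Pi16+ and Il6+ cells: the 4 classes went from 23.2 and 34.4 CPM to 90.5, 96.9 and 69.3.

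Cd200+ cells with STA + Il23mc could be set only against the STA hashtag of experiment 1, 20 cells against 17. With 1 hashtag each there is no test, and intervals cover counting error only. Of 521 genes with at least 50 UMIs in a hashtag, 85 (16.3%) had an interval of the log2 ratio above 0 and 118 (22.6%) below 0. Lcn2, the neutrophil-associated lipocalin, had 61 UMIs against 1 (log2 ratio 5.85, interval 3.32 to 11.18), Chil1 50 against 3, Saa3 50 against 5, Slpi 77 against 11, Sfrp2 80 against 14 and Ostn 105 against 22. In the other direction Cxcl2, a neutrophil attractant, had 0 UMIs against 268. With the 0 set to a floor of 3 counts it was 94.2-fold lower (log2 ratio -6.56, upper limit of the interval -6.25). Tac1 had 1 against 63, Ccl8 2 against 53, Epyc 7 against 62, Cryab 21 against 141 and Thbs4 34 against 190.

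Single cells carried much of these sums. In the Il23mc hashtag 1 cell held 96.0% of the Saa3 UMIs and 67.2% of those of Lcn2, and in the STA hashtag 1 cell held 98.1% of the Ccl8, 90.5% of the Tac1 and 67.5% of the Cxcl2 UMIs. Il6 did not differ beyond counting error (log2 ratio -0.01, interval -0.34 to 0.31), nor did Dkk3 (0.22, -0.93 to 1.40) or Cd200 (-1.25, -2.66 to 0.03). Prg4 was higher with Il23mc by 1.5 (1.04 to 1.98), Mmp3 by 1.08 (0.70 to 1.48) and Postn by 0.35 (0.10 to 0.59).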

How the data were processed

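Fibroblast wells were sequenced with 10x 3-prime chemistry, per the labels' protocols. The authors deposited raw UMI counts per gene and barcode. Per the file headers they came from Cell Ranger 6.1.2, whereas the submitters' processing notes name version 6.0.6 and the mm10 build. Their deposited cell table also gives the mitochondrial fraction, the hashtag call and the class; how these were made is not given in the sources used here. No further doublet call was made.

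The members and gene lists were chosen with earlier results of these data known. UMIs of Cd200+ cells, and of Mmp3+, Il6+, Pi16+ and Lining cells together, were summed per hashtag and compared with edgeR 4.0.16 in R 4.3.3 (TMM, filterByExpr, experiment as a term, Benjamini-Hochberg adjusted p of 0.05). Of 32285 genes, 3100 passed the filter for Cd200+ sums. The fit was tested on simulated data. Each SE given with an edgeR value is the absolute log2 value over the square root of the quasi-likelihood F. It is thus computed back from the test, with spread shared across genes, and is not a fitted standard error. Class ratios used a pseudocount of 0.5 UMIs. The permutation p is the share of splits with at least the observed absolute difference. Alternatives were DESeq2 1.42.0, RLE factors, no filter, fits without a hashtag or a term, and stricter cell filters.

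Named genes were the 20 highest and 10 lowest by class ratio, 6 each way in the interaction and the Il23mc comparison, 2 per list where none passed, and Cd200, Dkk3, Postn, Thy1, Pdgfra, Pi16, Prg4, Mmp3 and Il6. Genes outside this rule were named after their values were seen: the DESeq2 calls, and Col3a1, Acan, Tnmd, Alpl, Runx2, Fmod and Cryab beside their lists. Some results of these comparisons are not reported here.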

Additional observations from a re-analysis of the deposited data

Results flagged for a closer look

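The STA effect differed between Cd200+ cells and the other 4 fibroblast classes, by the interaction test of edgeR, for these named genes. Higher in Cd200+ cells were Ccl8 (adjusted p = 3.89e-12), Procr (3.89e-12), Rgs5 (5.39e-06), Trf (5.54e-05), Ctla2a (0.00122) and Car3 (0.0392). Lower were Fabp5 (1.72e-05), Wnt16 (0.00195), Scx (0.0126), Npy (0.0227), Ctsc (0.0244) and Mkx (0.0322).

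Most of these rest on few molecules, and without the hashtag block none was called. In 1 cell lay 100% of the Rgs5 UMIs of the class, 93.3% of those of Npy, 92.9% of those of Ccl8 and 89.7% of those of Ctla2a. Without healthy replicate 1 the difference turned from 13.7 to -0.81 for Car3, from 12.3 to -0.67 for Rgs5, from 5.04 to -1.58 for Ctla2a and from -12.5 to 5.92 for Npy, and without STA replicate 1 it turned likewise, to -0.80, -0.66, -1.57 and 5.82. In healthy Cd200+ cells Ccl8, Rgs5, Trf and Car3 had 0 UMIs, against 54, 19, 14 and 2 in STA, and Npy had 15 against 0, so no fold is given. Procr, the protein C receptor, was better measured, with 3 UMIs in healthy and 79 in STA cells and a difference of effects of 5.17 (SE 0.65). It read 170 and 210 CPM in STA and severe STA but 15.7 in mild STA.

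Scx and Mkx are transcription factors of tendon. In the other classes Scx went from 1.6 and 2.4 CPM in healthy to 21.2, 32.0 and 35.3 in STA hashtags. Against Pi16+ and Il6+ cells alone, the differences of Scx and Mkx were -0.72 and -0.47 (adjusted p = 1.00 each). What lies behind these differences was not tested.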

How the results depend on the processing

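The count of genes called between STA and healthy Cd200+ cells depended on the fit. It was 0 with all hashtags and 0 to 47 when a hashtag was left out: 42 without healthy replicate 1, 47 without healthy replicate 2 and 8 without STA replicate 2 (mild STA). It was 60 with no low-count filter, 11 with DESeq2 and 5 in experiment 2 alone. All 11 DESeq2 genes kept their sign in every alternative. Of 13 edgeR fits, 8 called 0 of the 11, 4 called 1 to 8 and 1, with no filter, called all 11. The cause was not tested. The interaction count of 122 ranged from 37 to 187 without a hashtag (37 without healthy replicate 1, 38 without STA replicate 1, 72 without healthy replicate 2 and 187 without STA replicate 2). It was 0 with no replicate block, that is with experiment in place of the hashtag block, and 4 against Pi16+ and Il6+ cells. With no replicate block in the STA comparison, that is without its experiment term, 0 genes were called. The share difference of -3.68 percentage points ran from -4.68 to -2.68 without a hashtag.

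Of 61 named genes, 40 kept their sign in every alternative. With no low-count filter, Pdgfra turned to 0.0036 and Ldha to 0.0214. Without cells holding a leukocyte UMI, Pdgfra was 0.0163, Fos -0.0445, Ibsp -0.0684 and H2afz -0.103. In cells with at most 5% mitochondrial UMIs, Serping1 was -0.0537, Ibsp -0.754 and Vcam1 -0.217. Without the experiment term, Pdgfra was 0.0238, Serping1 -0.153, Ibsp -1.01, H2afz -0.0054, Rarres2 0.0511 and Vcam1 -0.0674. With 6 hashtags in the fit, Pdgfra was 0.0005 and Ldha 0.0188. In experiment 2 alone, Pdgfra was 0.165, Ier3 0.0973, Pcna 0.688 and Rarres2 0.217.

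Leaving out a hashtag turned the sign of these, with lowest and highest values: Cd200 -0.98 and 0.14, Pdgfra -0.31 and 0.15, Mmp3 -1.36 and 1.46, Mmp2 -0.18 and 0.0195, Id3 -0.20 and 0.52, Tgfb2 -0.70 and 1.45, Socs1 -0.30 and 1.16, Il4ra -0.23 and 1.43, Ier3 -0.77 and 0.0778, Serping1 -0.32 and 0.28, Fos -0.56 and 0.48, Ibsp -0.66 and 1.81, Tpm1 -0.25 and 1.78, Myh9 -0.23 and 0.23, H2afz -0.0351 and 0.21, Pcna -1.33 and 0.67, Hk2 -0.0082 and 0.40, Ldha -0.32 and 0.37, Rarres2 -0.43 and 0.20, Vcam1 -0.15 and 0.55 and Cdh11 -0.13 and 0.80. In the interaction the fitted values were Car3 -0.81 and 14.6, Rgs5 -0.67 and 13.2, Ctla2a -1.58 and 5.05 and Npy -14.2 and 5.92. With 10 to 31 cells per hashtag, depth limits every gene level here.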
